A study of Mus musculus with 10 samples.

Results

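The interleukin-6 (IL-6) family was followed in mouse mammary fibroblasts and lobular carcinoma cells through 10 genes, taken by symbol from the 55486 genes of the count table. They were the ligand genes Il6, Lif and Il11, the receptor genes Il6ra, Il6st, Lifr and Osmr, the transducer gene Stat3, its feedback inhibitor Socs3, and Il1r1, which encodes the receptor for interleukin-1 (IL-1). Each symbol matched a single gene. Bulk mRNA sequencing gave 10 libraries in 6 groups from 5 gels of collagen and BME (basement membrane extract) that were cultured for 7 days and then sorted by color. Normal fibroblasts (NFs) came from the mammary glands of pooled mTmG mice aged 8 weeks, whose cells are red until Cre recombinase turns them green, and had been separated by the surface protein CD26 and grown for 1 week. CD26+ NFs received a Cre-expressing adenovirus before the subsets were mixed 1 to 1, so virus and subset cannot be told apart. Tumor cells were the invasive lobular carcinoma (ILC) lines 13-MCB-17 and 10-SJK-221 from mice in which Cre, driven by the Wap promoter of mammary epithelium, acts on floxed alleles that include Cdh1F/F.

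Gel 1 held NFs alone and gave 1 CD26- and 1 CD26+ library. Gels 2 and 3 held tumor cells alone, of lines 13-MCB-17 and 10-SJK-221 respectively. Gels 4 and 5 were the co-cultures of NFs with these lines in the same order, and each gave a CD26- NF, a CD26+ NF and a tumor cell library. Co-culture was therefore compared with NFs alone as 2 gels against 1, and what is particular to gel 1 cannot be told apart from culture without tumor cells. The fit of co-culture in NFs has no term for gel, so the CD26- and CD26+ libraries of 1 gel count as separate. Its SE and p-values measure spread between libraries rather than between gels. Libraries held 14142334 to 18408940 counts. Levels are given as CPM (counts scaled to the library total), on which 3 counts, the one-sided 95% limit for an observed 0, come to 0.163 to 0.212 CPM. Such limits cover counting error only.

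Nearly all cytokines of the IL-6 family share the signaling chain gp130, the product of Il6st. IL-6 and IL-11 first bind receptors of their own, encoded by Il6ra and Il11ra1, whereas LIF uses gp130 paired with the LIF receptor and oncostatin M uses gp130 paired with the product of Osmr. Kinases of the JAK family bound to gp130 then phosphorylate STAT3, a step that mRNA levels do not show, and STAT3 induces Socs3, whose product damps the signal. In tumor stroma, IL-6, LIF and IL-11 are known as products of inflammatory cancer-associated fibroblasts, and IL-1 acting through Il1r1 is a known inducer of them.

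Cell type markers were checked before the results. Epcam, an epithelial adhesion gene, had 335 to 432 CPM in tumor libraries. It was at 0 counts in gel 1 and at 6.42 to 15.9 CPM in NFs from co-culture. Cdh1, the floxed gene and itself among the epithelial markers, was at 239 and 269 CPM in tumor libraries without NFs, and at 144 and 139.9 CPM with them, in counts over the whole gene that do not show whether an exon was deleted. The sum of 10 epithelial markers in co-cultured NFs was 108 to 285 CPM, which is 2.93% to 6.30% of the tumor library from the same gel, whereas NFs alone had 0.435 and 0.912 CPM with 8 of the 10 at 0. The collagen gene Col1a1 had 7882 to 18556 CPM in NFs and 1.78 to 89.1 CPM in tumor cells. The sum of 9 fibroblast markers was 77122 and 71889.7 CPM in the NFs of gel 1 and 24986 to 43498 CPM in those of gels 4 and 5, with 4 of the 9 lower in co-culture (Col1a1, Col1a2, Col3a1, Pdgfra) and 2 higher (Dcn, Thy1). In tumor libraries 6 of the 7 fibroblast markers tested rose with co-culture. The sum of all 9 was 1267 and 1336 CPM in tumor cells grown alone, with no NFs in the gel, and 2242 and 2701 CPM in co-culture, 6.92% and 7.18% of the NF level in gels 4 and 5, most of it Vim (1195 and 1297 CPM alone). The 6 markers under 1 CPM in both tumor libraries grown alone, a choice made after their values were seen, summed to 0.201% and 0.15% of the NF level in these gels. At the share of all 9, the co-cultured tumor libraries would hold 5.02 and 5.61 CPM of Il6 and 8.44 and 7.55 CPM of Lifr from NFs. At that of the 6 they would hold 0.146 and 0.118 CPM of Il6 and 0.246 and 0.158 CPM of Lifr. They held 0.396 and 0.513 CPM of Il6 and 0.0566 and 0 CPM of Lifr. A sum of 5 endothelial and pericyte markers was also higher in co-cultured NFs, at 85.4 to 187 CPM, most of it from Cspg4. It was 12.9 and 17.0 CPM in NFs alone, with Cspg4 at 2.48 and 5.97 CPM and Rgs5 at 9.25 and 6.11 CPM. In CD26- NFs 3 of the 5 rose with co-culture and Rgs5 fell. The sum of 6 immune markers was 9.75 and 11.3 CPM in the NFs of gel 1 and 21.2 to 56.6 CPM in those of gels 4 and 5. In tumor libraries it was 299.9 and 93.8 CPM without NFs, and 81.3 and 35.3 CPM with them. Most of it in tumor cells and co-cultured NFs was Cd68, which rose in NFs, and Ptprc was at 0.127 CPM or less. Of 3 immune markers tested for co-culture in NFs, 2 rose and 1 fell. The latter was Lyz2, from 6.02 and 4.07 CPM to at most 0.964 CPM. The part of these markers in the results was not tested. Dpp4, which encodes CD26, did not exceed 0.771 CPM in any library. It had 4, 12 and 4 counts in the CD26+ NFs of gels 1, 4 and 5 against 0, 0 and 1 counts in the CD26- NFs of these gels, higher in CD26+ NFs each time but at few counts.

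Promoter sequences of the members were taken from RefSeq (GRCm38.p6) as the 250 bases before each start, giving 13 windows for the 10 genes. They were searched on both strands for the STAT letters TTCNNNGAA, the AP-1 letters TGANTCA and the NF-kappaB motif. AP-1 letters were found for 3 members (Il6, Lif and 1 start of Il11), an NF-kappaB match for 3 (Il6, Lif and 1 start of Il1r1) and STAT letters for 1 (Socs3). Of 32851 mouse promoters of this length, 6.75% held the AP-1 letters, 7.25% the NF-kappaB motif and 7.02% the STAT letters. The windows of the 3 ligands and of the feedback inhibitor are shown because their transcripts are the ones followed most closely here. Matches are in capitals, the AP-1 letters first and the NF-kappaB match second in Il6 and Lif, the AP-1 letters in Il11 and the STAT letters in Socs3. Bases that lie in annotated exons were left out of the Lif and Socs3 windows. A match describes letters and not a bound site.
Il6, chr5:30012864-30013113, plus strand: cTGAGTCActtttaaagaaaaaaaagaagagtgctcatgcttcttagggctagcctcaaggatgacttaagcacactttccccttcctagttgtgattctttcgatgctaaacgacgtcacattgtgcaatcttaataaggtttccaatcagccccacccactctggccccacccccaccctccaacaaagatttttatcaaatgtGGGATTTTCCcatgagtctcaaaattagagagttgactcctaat
Lif, chr11:4257318-4257556, plus strand: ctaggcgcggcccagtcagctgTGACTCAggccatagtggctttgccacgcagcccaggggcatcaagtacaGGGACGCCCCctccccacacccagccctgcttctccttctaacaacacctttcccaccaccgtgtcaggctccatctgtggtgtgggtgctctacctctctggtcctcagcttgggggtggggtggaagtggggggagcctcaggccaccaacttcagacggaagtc
Il11, chr7:4778142-4778391, minus strand: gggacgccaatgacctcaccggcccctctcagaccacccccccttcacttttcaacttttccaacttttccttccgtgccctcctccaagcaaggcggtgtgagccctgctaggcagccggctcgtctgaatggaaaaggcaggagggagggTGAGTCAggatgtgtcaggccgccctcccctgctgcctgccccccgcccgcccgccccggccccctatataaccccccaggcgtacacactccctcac
Socs3, chr11:117969467-117969616, minus strand: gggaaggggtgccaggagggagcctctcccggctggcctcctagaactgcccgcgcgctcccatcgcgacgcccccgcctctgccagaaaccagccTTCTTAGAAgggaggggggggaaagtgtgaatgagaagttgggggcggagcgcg

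Beside tumor cells, NFs held more of all 3 ligand transcripts and less gp130, Osmr, Stat3, Socs3 and Il1r1 transcript, while tumor cells beside NFs held more Osmr, Il11 and Stat3 and less Lif. In NFs, 9 of the 10 members passed edgeR's test for co-culture (3 higher, 6 lower), where 48.8% of 15013 genes tested passed, 25.9% higher and 22.9% lower. The members' median log2 change was -0.55, against 0.02 over all genes tested. In tumor cells, 8 members were measured well enough to be tested and 4 passed (3 higher, 1 lower), where 22.3% of 13197 genes passed, 10.8% higher and 11.5% lower. Their median was 0.32, against 0.01 over all genes. NFs against tumor cells differed in all 10 members in separate gels (7 higher in NFs, 3 lower), where 55.5% of 17048 genes passed, 28.4% higher and 27.1% lower. In co-culture 9 of 10 differed (7 higher, 2 lower), where 51.8% passed, 27.7% higher and 24.2% lower. Without gel 4 or gel 5 each co-culture group is 1 library, and the spread comes from the 2 tumor libraries grown alone, of different lines. Lif, Il6ra, Stat3 and Socs3 were then lost each time, and Osmr and Il1r1 without gel 5. Il6, Il11 and Lifr passed each time, with no change of direction among these 9. These backgrounds are high, so the counts alone do not set the members apart, and the values of each gene follow by role.

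**Figure D1:**
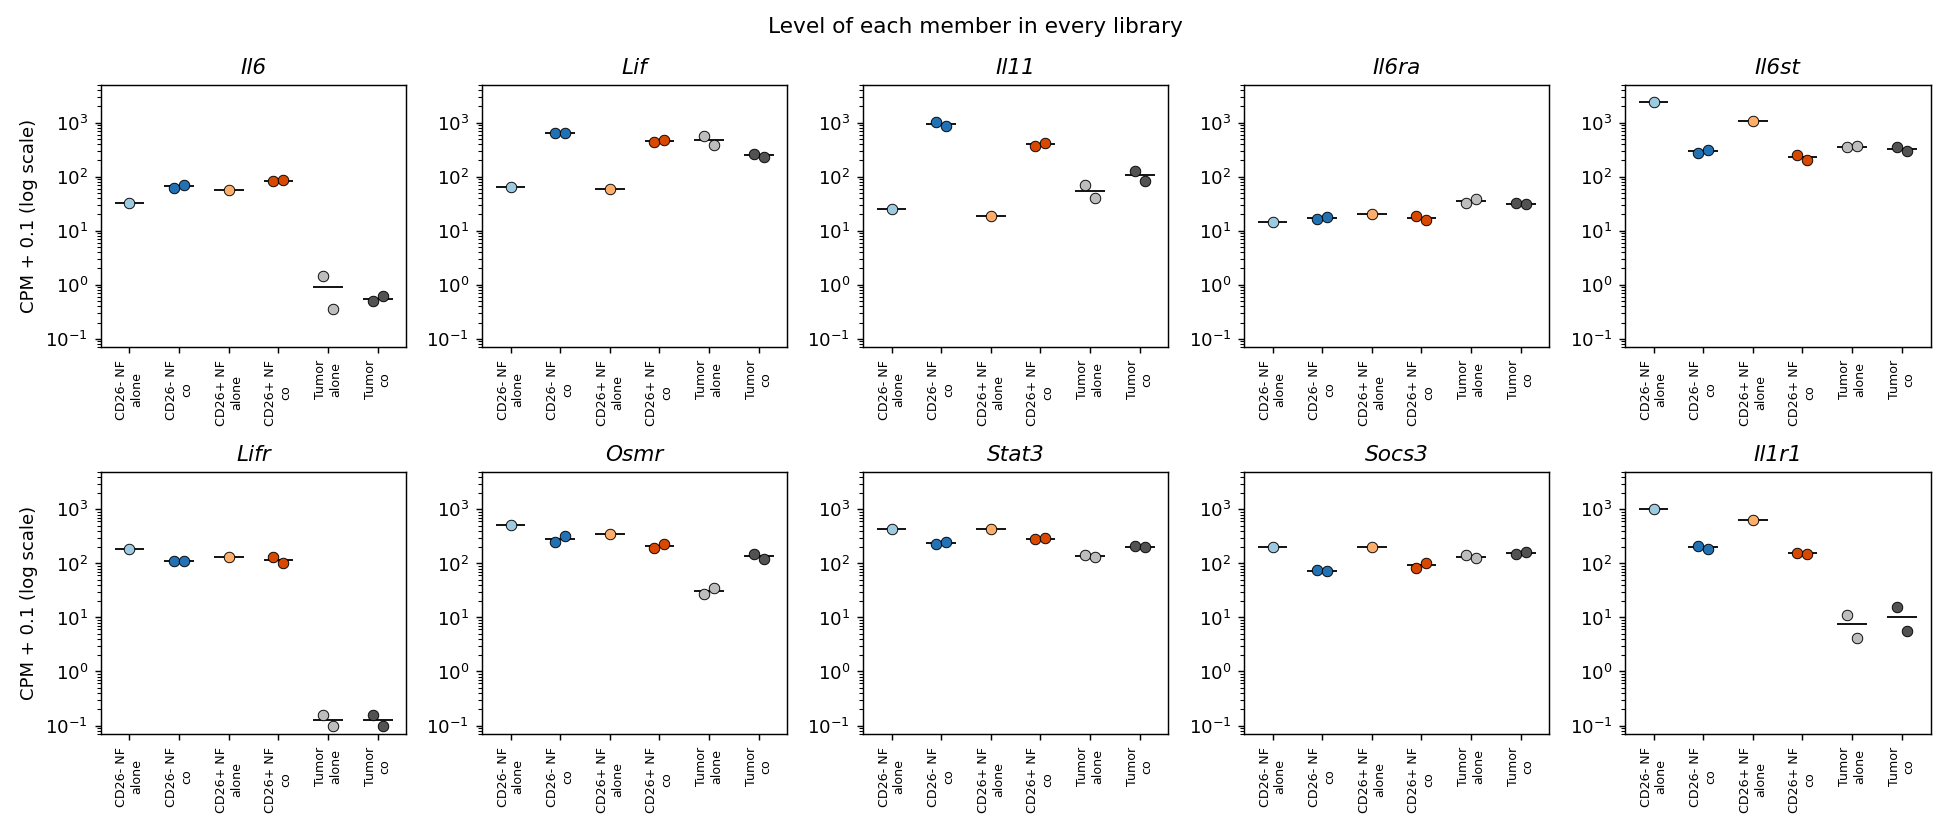
CPM + 0.1 of each member (log scale) in the 10 libraries by group, with the group mean as a line. Lif and Il11 in co-cultured NFs lie above NFs alone in every library, and Il6st and Il1r1 below.

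Il6 (GRCm38 chromosome 5, 30013114 to 30019981) encodes the founding ligand of the family. CD26- NFs had 33.0 CPM of Il6 when grown alone and 61.7 and 71.2 CPM beside tumor cells (gels 4 and 5), and CD26+ NFs had 57.8 CPM, then 83.3 and 85.1 CPM. Tumor libraries had 1.36 and 0.254 CPM (gels 2 and 3) and, beside NFs, 0.396 and 0.513 CPM, which are 25, 4, 7 and 9 counts. Every NF library was above every tumor library, and the 4 co-cultured NF libraries were above the 2 of NFs alone. The co-culture change in NFs was 0.82 ± 0.16 on the log2 scale (SE, adjusted p = 0.00243, edgeR). Each subset alone is 1 library, so values within a subset use the spread of the co-cultured groups and assume that the lone library varies like them. The change was 1.08 ± 0.22 in the CD26- subset (adjusted p = 0.00225), whereas the 0.58 ± 0.22 of CD26+ NFs did not pass (adjusted p = 0.0519). NFs exceeded tumor cells by 5.82 ± 0.47 alone (adjusted p = 1.85e-05) and 7.54 ± 0.50 in co-culture (adjusted p = 7.11e-06) on the log2 scale. The first value rests on tumor libraries of 25 and 4 counts and was 5.09 without gel 3 and 7.54 without gel 2.

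Lif (chromosome 11, 4257557 to 4272514) encodes leukemia inhibitory factor, which acts through Lifr and gp130. CD26- NFs went from 63.3 CPM without to 657 and 654 CPM with tumor cells, and CD26+ NFs from 58.3 CPM to 448 and 485 CPM. Tumor cells went the other way, from 567 to 267 CPM in 13-MCB-17 and from 387 to 229.8 CPM in 10-SJK-221. The order of the cell types turned over: each tumor library was above both NF libraries in separate gels, and each NF library was above both tumor libraries in co-culture. Lif was higher in co-cultured NFs by 3.23 ± 0.17 on the log2 scale (adjusted p = 1.04e-06, edgeR), or 10.8-fold in CD26- and 8.22-fold in CD26+ NFs. In tumor cells Lif fell by 0.95 ± 0.13 (SE, adjusted p = 0.00145), 2.13-fold in 13-MCB-17 and 1.68-fold in 10-SJK-221. NFs against tumor cells gave -2.85 ± 0.23 alone (adjusted p = 2.02e-05) and 1.36 ± 0.20 in co-culture (adjusted p = 0.000684). The co-culture value was 1.55 without gel 4 and 1.18 without gel 5, and neither passed with 1 library left per co-culture group. If tumor cells were present in NF libraries at the share of their epithelial markers, their Lif would make up 1.05% to 2.98% of the NF level.

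Il11 (chromosome 7, 4772373 to 4782859) encodes interleukin-11, whose own receptor gene is Il11ra1. CD26- NFs had 25.0 CPM without and 1013 and 859 CPM with tumor cells, and CD26+ NFs 19.0 CPM, then 371 and 420.4 CPM. In 13-MCB-17 the level was 68.8 CPM without and 127 CPM with NFs, and in 10-SJK-221 it was 40.1 and 83.7 CPM. No NF library from co-culture overlapped with any other group. It was the member with the greatest co-culture change in NFs, 4.84 ± 0.25 on the log2 scale (adjusted p = 9.36e-07, edgeR), which was 39.1-fold in CD26- and 21.5-fold in CD26+ NFs. Tumor cells of both lines rose as well, by 0.94 ± 0.10 (adjusted p = 0.00062), 1.84-fold in 13-MCB-17 and 2.08-fold in 10-SJK-221. At the share of all 9 fibroblast markers, a sum that holds the tumor cells' own Vim, NF transcripts would make up 37.8% and 54.9% of this tumor cell level. At that of the 6 near 0 in tumor cells alone they would make up 1.1% and 1.15%, and their part in the rise was not tested. Il11 was lower in NFs than in tumor cells alone (-1.20 ± 0.31, adjusted p = 0.0107), a call that was lost without the tumor library of gel 2 (-0.71, adjusted p = 0.0617). In co-culture it was higher in NFs (2.73 ± 0.30, adjusted p = 0.000115). At the share of epithelial markers, tumor cell Il11 would make up 0.291% to 1.47% of the level in co-cultured NFs.

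**Figure D2:**
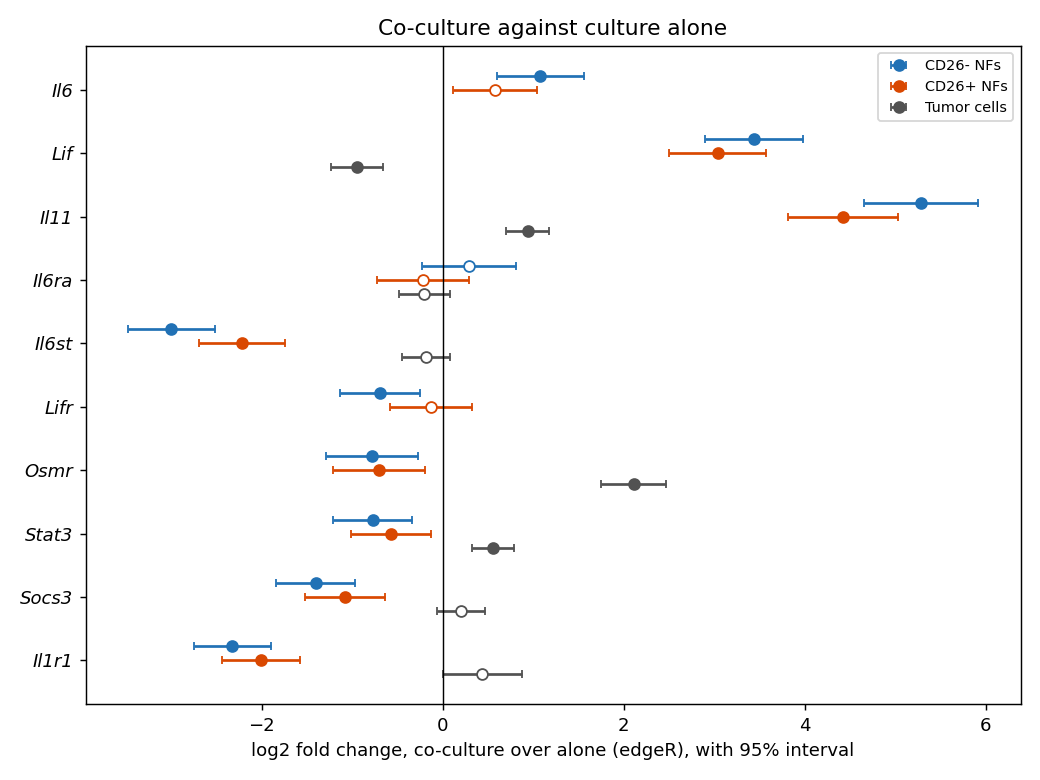
Log2 fold change of co-culture against culture alone for each member in CD26- NFs, CD26+ NFs and tumor cells, with 95% intervals from edgeR; filled symbols passed an adjusted p of 0.05 and open ones did not. Il11 and Lif rise furthest in both NF subsets, Il6st and Il1r1 fall furthest, and Osmr and Stat3 rise in tumor cells while they fall in NFs.

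Il6ra (chromosome 3, 89864059 to 89913196) encodes the IL-6 binding chain. CD26- NFs had 14.7 CPM without and 16.7 and 17.6 CPM with tumor cells, CD26+ NFs 20.5 CPM, then 18.6 and 15.7 CPM, and the tumor libraries 31.5 to 38.6 CPM. NF and tumor libraries did not overlap, and NFs alone overlapped with co-cultured NFs. NFs were lower than tumor cells by 0.91 ± 0.16 alone (adjusted p = 0.00187, edgeR) and 0.69 ± 0.14 in co-culture (adjusted p = 0.00363). The co-culture change did not pass in NFs (0.03, 95% interval -0.37 to 0.42) or in tumor cells (-0.20 ± 0.12, adjusted p = 0.296). Exons of another gene cover 2.8% of Il6ra exon length, so a part of its counts is uncertain.

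Il6st (chromosome 13, 112464070 to 112510086) encodes gp130, the chain that IL-6, LIF and IL-11 share. CD26- NFs went from 2460.4 CPM without to 278 and 310.3 CPM with tumor cells, and CD26+ NFs from 1097 CPM to 256 and 203 CPM. Line 13-MCB-17 had 356 CPM without and 349 CPM with NFs, and 10-SJK-221 had 364 and 298 CPM. Only the 2 libraries of NFs alone stood above the rest, and co-cultured NFs overlapped with co-cultured tumor cells. The co-culture change of Il6st in NFs was -2.63 ± 0.19 on the log2 scale (adjusted p = 6e-06, edgeR), or 7.98-fold lower in CD26- and 4.66-fold lower in CD26+ NFs. In tumor cells the change was -0.18 with a 95% interval of -0.45 to 0.08 (adjusted p = 0.298). NFs exceeded tumor cells by 2.32 ± 0.19 alone (adjusted p = 1.7e-05), while in co-culture the difference was -0.12, with a 95% interval of -0.47 to 0.23 (adjusted p = 0.537).

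Lifr (chromosome 15, 7090614 to 7197489) encodes the LIF receptor chain and was essentially an NF transcript. CD26- NFs had 188 CPM without and 113 and 109 CPM with tumor cells, and CD26+ NFs 130.1 CPM, then 131 and 101 CPM. The 4 tumor libraries held 1, 0, 1 and 0 counts. Summed counts gave a ratio of NFs to tumor cells of 5488 alone (exact 95% interval 985 to 2.17e+05, counting error only) and of 4003 in co-culture (718 to 1.58e+05). In NFs the co-culture change was -0.43 ± 0.16 (adjusted p = 0.0496, edgeR), a call lost with no filter on low counts (adjusted p = 0.0525), with a filter of 1 CPM (adjusted p = 0.0536) and without gel 5 (adjusted p = 0.226). Within subsets, CD26- NFs changed by -0.69 ± 0.21 (adjusted p = 0.0213), and the value of -0.13 ± 0.21 for CD26+ NFs did not pass (adjusted p = 0.661).

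Osmr (chromosome 15, 6813577 to 6874969) encodes the oncostatin M receptor chain. CD26- NFs had 516 CPM without and 246 and 325 CPM with tumor cells, and CD26+ NFs 353 CPM, then 194 and 227 CPM. Line 13-MCB-17 rose from 26.6 to 149 CPM and 10-SJK-221 from 35.1 to 122 CPM, so co-cultured tumor libraries lay above both tumor libraries grown alone and below every NF library. The tumor cell change was 2.11 ± 0.16 on the log2 scale (adjusted p = 0.000111, edgeR), or 5.60-fold in 13-MCB-17 and 3.46-fold in 10-SJK-221. In NFs Osmr fell by 0.75 ± 0.16 (adjusted p = 0.00387). NFs exceeded tumor cells by 3.93 ± 0.25 alone (adjusted p = 4.62e-06) and 1.06 ± 0.20 in co-culture (adjusted p = 0.00253). At the share of all 9 fibroblast markers, the tumor cells' own Vim included, NF transcripts would make up 10.2% and 16.3% of Osmr in co-cultured tumor cells (gels 4 and 5). At the share of the 6 markers near 0 in tumor cells alone they would make up 0.298% and 0.341%. Osm, the gene of the ligand, did not exceed 0.869 CPM in any library.

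Stat3 (chromosome 11, 100885098 to 100939540) encodes the transcription factor at the end of the pathway. CD26- NFs had 426 CPM without and 231 and 245 CPM with tumor cells, and CD26+ NFs 439.6 CPM, then 281 and 297 CPM. Line 13-MCB-17 had 143 CPM without and 207 CPM with NFs, and 10-SJK-221 had 131 and 203 CPM. Co-culture thus brought the cell types closer without overlap. The log2 change was -0.68 ± 0.13 in NFs (adjusted p = 0.00214, edgeR) and 0.56 ± 0.10 in tumor cells (adjusted p = 0.00602), and the difference of NFs from tumor cells was 1.79 ± 0.16 alone (adjusted p = 2.85e-05) and 0.56 ± 0.13 in co-culture (adjusted p = 0.00881). At the share of all 9 fibroblast markers, the tumor cells' own Vim included, NF transcripts would make up 8.55% and 9.6% of Stat3 in co-cultured tumor cells. At that of the 6 markers near 0 in tumor cells alone they would make up 0.249% and 0.201%.

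Socs3 (chromosome 11, 117966079 to 117970047) encodes the inhibitor that STAT3 induces, and its promoter window above held the STAT letters. CD26- NFs had 203 CPM without and 75.5 and 71.6 CPM with tumor cells, and CD26+ NFs 201 CPM, then 84.0 and 101 CPM. Line 13-MCB-17 had 142 CPM without and 149 CPM with NFs, and 10-SJK-221 had 124 and 163 CPM. NFs alone were the highest libraries and co-cultured NFs the lowest, with tumor cells between them. The co-culture change was -1.25 ± 0.14 in NFs (adjusted p = 6.55e-05, edgeR) and 0.20 in tumor cells (95% interval -0.06 to 0.47, adjusted p = 0.256). NFs were above tumor cells alone (0.73 ± 0.17, adjusted p = 0.00638) and below them in co-culture (-0.72 ± 0.14, adjusted p = 0.00321). The latter value was -0.68 without gel 4 and -0.75 without gel 5, and neither passed with 1 library left per co-culture group. At the share of epithelial markers, tumor cells would make up 5.76% to 10.2% of Socs3 in co-cultured NFs.

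Il1r1 (chromosome 1, 40225080 to 40317257) encodes the signaling receptor for IL-1. CD26- NFs had 1040.0 CPM without and 210.3 and 187 CPM with tumor cells, and CD26+ NFs 636 CPM, then 157 and 152 CPM. Line 13-MCB-17 had 10.8 CPM without and 15.2 CPM with NFs, and 10-SJK-221 had less, 4.01 and 5.42 CPM. The NF libraries fell by a log2 change of -2.17 ± 0.13 with co-culture (adjusted p = 1.94e-06, edgeR) and stayed above every tumor library (6.88 ± 0.64 alone, adjusted p = 3.92e-05; 4.27 ± 0.54 in co-culture, adjusted p = 0.000274). The tumor cell change of 0.44 ± 0.19 did not pass (adjusted p = 0.139).

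**Figure D3:**
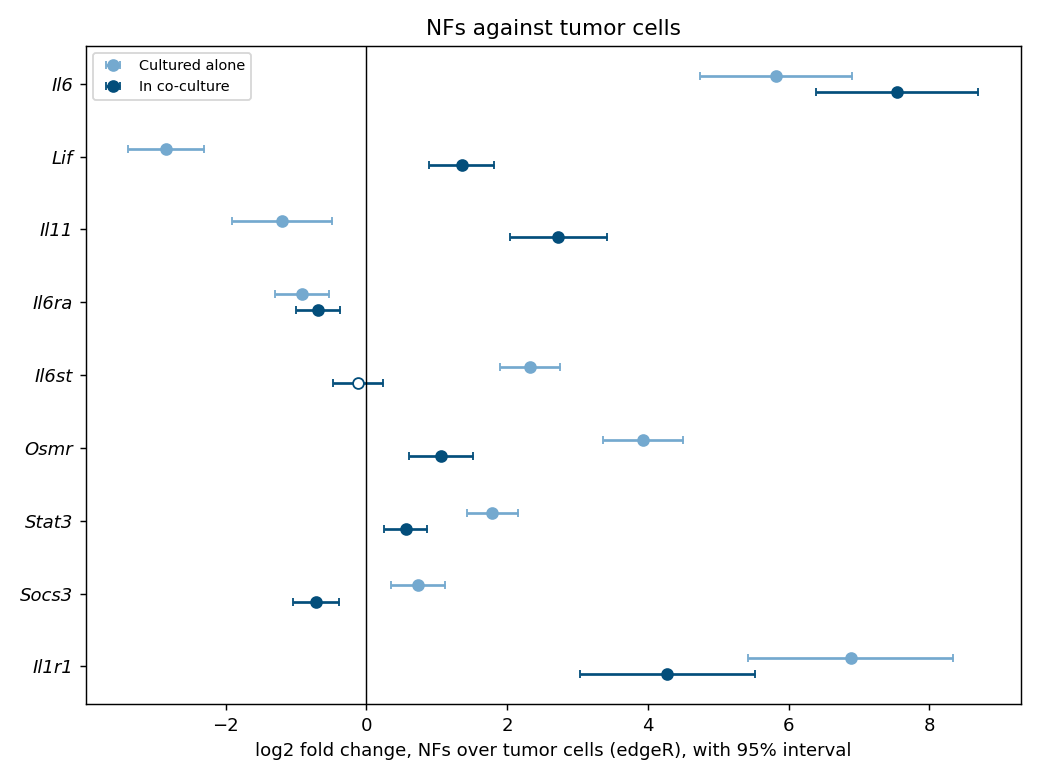
Log2 fold change of NFs against tumor cells for each member except Lifr, in separate gels and in co-culture, with 95% intervals from edgeR; filled symbols passed an adjusted p of 0.05. Lif, Il11 and Socs3 change sides between the culture conditions, and Il6st goes from 2.32 to -0.12.

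With any 1 tumor library left out, in a fit that pools the spread over all groups and assumes that a lone sample varies like the others, 2 of the 4 members called in tumor cells passed. Osmr passed each time, Lif was lost without either library of 13-MCB-17 (adjusted p = 0.17 and 0.178, edgeR), Il11 without either library of 10-SJK-221 (adjusted p = 0.0749 and 0.0775), and Stat3 without any of the 4 (adjusted p = 0.312 to 0.355). Without the term for tumor line, 0 of the 8 tested members passed in edgeR, 3 at an unadjusted p under 0.05, and 0 of 13197 genes passed, 2207 at an unadjusted p under 0.05. DESeq2 with the line term called 4 of the 8, and 1574 genes. In bulk libraries, fewer expressing cells and less RNA per cell cannot be told apart.

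Whether NFs and tumor cells responded differently was tested directly in a fit of all 10 libraries that was added after the values were seen. It passed for 8 of the 10 members (3 higher in NFs, 5 lower), where 30.8% of genes passed, 16.9% higher and 13.8% lower. The response of NFs exceeded that of tumor cells by 4.18 for Lif (adjusted p = 3.3e-07, edgeR) and 3.90 for Il11 (adjusted p = 4.73e-07) on the log2 scale. It was below that of tumor cells by a log2 difference of -2.86 for Osmr (adjusted p = 1.47e-05) and -1.24 for Stat3 (adjusted p = 0.000551).

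The order of the members within a group was read per kb of exon length, since counts grow with length. In CD26- NFs alone Il6st was highest at 222 CPM per kb, followed by Il1r1 at 163 CPM per kb, and Il11 at 12.0 CPM per kb ranked 9 of 10. In CD26+ NFs alone, Il1r1 (99.9 CPM per kb) and Il6st (98.8 CPM per kb) were nearly level, with no replicate to judge their spread. In co-cultured CD26- NFs Il11 ranked 1 with 450.0 ± 52.3 CPM per kb (SD, n = 2) and Lif ranked 2 with 151 ± 0.559, ahead of Il1r1 at 31.2 ± 2.55. Co-cultured CD26+ NFs had the same first members, Il11 at 190.3 ± 16.7 and Lif at 107 ± 5.94 CPM per kb, with Il6 next at 34.7 ± 0.530. In these co-cultured CD26+ NFs, Il6, Socs3 (32.0 ± 4.14) and Stat3 (30.3 ± 1.17) lay within their spread of one another, except that Il6 was more than 1 SD above Stat3. In tumor cells Lif ranked 1 alone, at 109.6 ± 29.2 CPM per kb, ahead of Socs3 at 46.1 ± 4.38. In co-cultured tumor cells Lif (57.1 ± 5.99), Socs3 (53.9 ± 3.59) and Il11 (50.6 ± 14.6) did not differ beyond their spread.

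**Figure D4:**
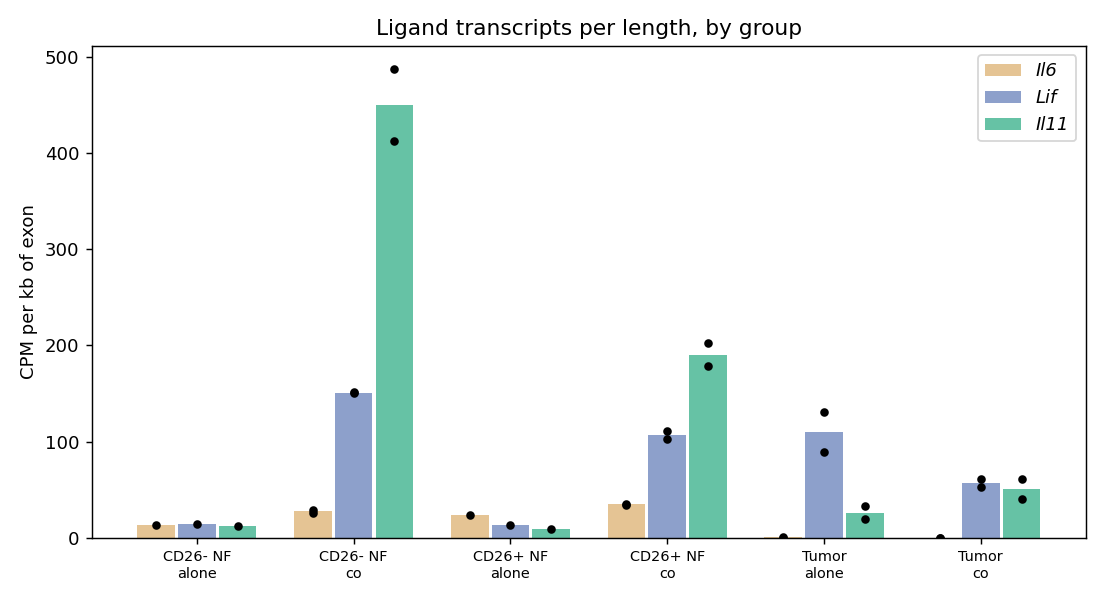
CPM per kb of exon length for Il6, Lif and Il11 in each library by group. Il11 in co-cultured CD26- NFs is the highest of the 3 ligands, and Il6 is the lowest of them in both tumor groups.

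CD26- and CD26+ NFs differed in 5 of 10 members over the 3 gels that held both, all of them lower in CD26+ NFs, where 7.53% of 15013 genes passed and 3.6% were lower. The members' median log2 difference was -0.41, against 0.00 over all genes. Il11 was lower in CD26+ NFs by 1.14 ± 0.19 on the log2 scale (adjusted p = 0.0103, edgeR), and the ratio of CD26- to CD26+ NFs was 1.32 in gel 1, 2.73 in gel 4 and 2.04 in gel 5. Lif was lower by 0.53 ± 0.14 (adjusted p = 0.0479), a call that held in 4 of 8 alternatives and was lost with another scaling of the libraries (RLE, adjusted p = 0.0522), with a filter of 1 CPM (adjusted p = 0.052), without gel 4 (-0.42, adjusted p = 0.14) and without gel 5 (-0.47, adjusted p = 0.421). Il6st (-0.78 ± 0.19, adjusted p = 0.0373), Osmr (-0.63 ± 0.15, adjusted p = 0.0395) and Il1r1 (-0.64 ± 0.13, adjusted p = 0.0215) were also lower in CD26+ NFs in each of the 3 gels. In gels 1, 4 and 5 the ratio of CD26- to CD26+ NFs was 2.24, 1.08 and 1.53 for Il6st. For Osmr it was 1.46, 1.27 and 1.43, and for Il1r1 1.64, 1.34 and 1.24. These 3 calls were lost without gel 1 (adjusted p = 0.107 for Il6st, 0.089 for Osmr and 0.0663 for Il1r1, edgeR). Il6 was higher in CD26+ NFs in 3 of 3 gels, by 1.75, 1.35 and 1.20 times, but did not pass (0.34 ± 0.15, adjusted p = 0.188). Stat3, Socs3, Il6ra and Lifr did not pass either, with log2 differences of 0.04, 0.06, 0.01 and -0.29. Without gel 1 the count of members passing in edgeR was 2, where 977 genes passed, and without gel 5 it was 0, where 17 genes passed. At an unadjusted p under 0.05 there were 6 members and 1669 genes without gel 5. DESeq2, run on all 3 gels only, called 5 members and 1676 genes.

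Within co-culture alone, 2 members passed, both lower in CD26+ NFs, where 6.01% of 16231 genes passed and 2.53% were lower. They were Il11 (-1.41 ± 0.18, adjusted p = 0.000475, edgeR) and Lif (-0.66 ± 0.17, adjusted p = 0.0369). The Lif call was lost with no filter on low counts (adjusted p = 0.0604), without gel 4 (adjusted p = 0.0716) and without gel 5 (adjusted p = 0.106), whereas Il11 passed in each. With a gel left out, 1 library of each subset remains, and the fit takes the spread from the tumor libraries and assumes that the lone libraries vary like them. With the gel as a replicate block, more genes passed, 2407 in place of 975. Of the members 5 passed, adding Il6st (-0.53, adjusted p = 0.0179, edgeR), Osmr (-0.59, adjusted p = 0.00585) and Il1r1 (-0.53, adjusted p = 0.0171). Epithelial markers were higher in the CD26+ library of each co-culture gel, at 159 against 108 CPM in gel 4 and 285 against 135 CPM in gel 5, and their part in these differences was not tested.

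**Figure D5:**
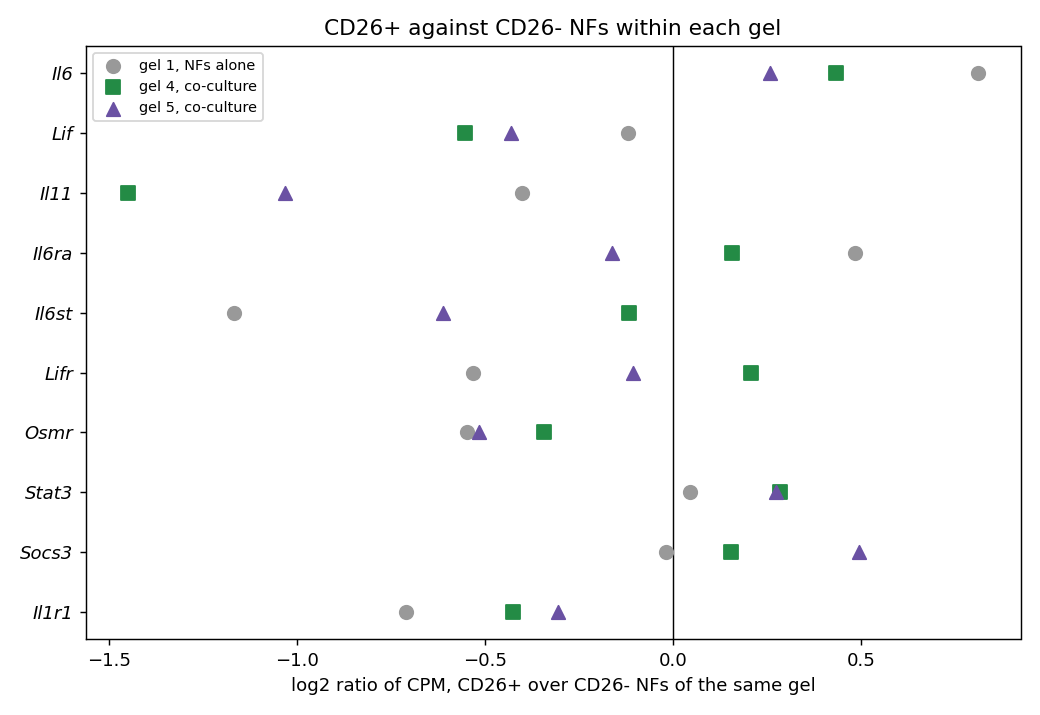
Log2 ratio of CPM in CD26+ to CD26- NFs for each member in gels 1, 4 and 5. Lif, Il11, Il6st, Osmr and Il1r1 lie below 0 in all 3 gels, and Il6 and Stat3 above.

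In comparisons of 2 co-culture libraries with 1 lone library, whose spread was assumed to be that of the co-cultured groups, the change with co-culture passed for 9 of 10 members in CD26- NFs (3 higher, 6 lower), where 30.8% of 16231 genes passed, 16.6% higher and 14.1% lower. In CD26+ NFs 7 of 10 passed (2 higher, 5 lower), where 34.2% passed, 19% higher and 15.2% lower. With no filter on low counts 5 passed in CD26+ NFs, without Osmr (adjusted p = 0.0548, edgeR) and Stat3 (adjusted p = 0.0611). Without gel 4 each NF group is 1 library, and the fit takes the spread from the tumor libraries. The change of Osmr was then -0.56 in CD26- and -0.58 in CD26+ NFs, and neither passed. The subset difference in that change was itself tested and passed for 0 of 10 members in edgeR, where 0.376% of genes passed, and for 0 in DESeq2, where 97 genes passed. At an unadjusted p under 0.05 in edgeR, beside 1265 of the 16231 genes tested, were 2 members. These were Il11, with a smaller rise in CD26+ NFs (-0.86, 95% interval -1.56 to -0.17, adjusted p = 0.481), and Il6st, with a smaller fall (0.78, interval 0.08 to 1.48, adjusted p = 0.571). For Lif the difference was -0.40 (adjusted p = 0.881) and for Il6 -0.50 (adjusted p = 0.783).

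The further lists below are counted against the same shares of all genes tested, 25.9% higher and 22.9% lower with co-culture in NFs, 10.8% and 11.5% in tumor cells, and 3.93% higher and 3.6% lower in CD26+ than in CD26- NFs over 3 gels. Among 8 other ligands of the family, 3 were tested in NFs and 2 rose with co-culture. For Clcf1, the gene of a cytokine of the family, CD26- NFs had 30.3 CPM without and 63.9 and 53.5 CPM with tumor cells, and CD26+ NFs 25.4 CPM, then 38.0 and 36.4 CPM (0.80 ± 0.15, adjusted p = 0.00197, edgeR). It was also lower in CD26+ NFs over 3 gels, by a log2 difference of -0.68 ± 0.14 (adjusted p = 0.0218). In tumor cells 1 of 5 tested rose and 1 fell. Clcf1 went from 151 CPM in both lines to 45.7 and 60.7 CPM (-1.55 ± 0.12, adjusted p = 0.000156), the same direction as Lif in these cells.

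Of 4 other receptor genes of the family, 1 rose and 2 fell in NFs. Il11ra1, the IL-11 binding chain, went from 127 to 69.3 and 61.5 CPM in CD26- NFs and from 126 to 75.2 and 95.2 CPM in CD26+ NFs (-0.72 ± 0.15, adjusted p = 0.00316, edgeR). It was 0.254 to 2.55 CPM in tumor cells. Il27ra rose 3.18-fold (adjusted p = 0.00154), and Il31ra, at 1.12 and 2.95 CPM in gel 1 and at most 0.193 CPM in gels 4 and 5, fell (adjusted p = 0.000622).

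Of 10 JAK kinase and other STAT genes, 9 were tested, and in NFs 2 rose and 3 fell with co-culture. Stat2, a transducer of interferon signals, had a log2 change of -0.80 ± 0.15 (adjusted p = 0.00211, edgeR). Jak3 rose by 1.22 ± 0.16 (adjusted p = 0.000216) in NFs, where its co-culture level was 20.9% to 38.4% of that in tumor cells of the same gel, beside an epithelial share of 2.93% to 6.30%. In tumor cells 2 rose and 2 fell. The kinase genes Jak2 (138 and 145 CPM alone, 357 and 325 CPM in co-culture, adjusted p = 0.000232) and Jak3 (47.5 and 56.2 CPM, then 138 and 135 CPM, adjusted p = 0.00014) rose, and Tyk2 changed by -1.02 ± 0.11 (adjusted p = 0.000475). Of 12 other negative regulators, 2 rose and 6 fell in NFs (all genes 25.9% and 22.9%), while 2 rose and 2 fell in tumor cells (all genes 10.8% and 11.5%). In NFs the phosphatase gene Ptpn6 rose 3.57-fold (adjusted p = 0.00528), from 0.807 and 0.772 CPM to between 1.73 and 3.98 CPM, which is 6.8% to 15.9% of the tumor level in the same gel beside the epithelial share of 2.93% to 6.30%. Socs5 and Socs1 fell 1.77-fold (adjusted p = 0.00158) and 1.64-fold (adjusted p = 0.013). The 2 that rose in tumor cells were the SOCS family genes Cish (2.30-fold, adjusted p = 0.00796) and Socs2 (2.06-fold, adjusted p = 0.0271).

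Of 13 genes known to respond to STAT3, all tested, 3 rose and 6 fell with co-culture in NFs (all genes 25.9% and 22.9%), and 4 rose and 0 fell in tumor cells (all genes 10.8% and 11.5%). Timp1, a protease inhibitor, rose in both cell types, from 626 and 507 CPM to 766 to 1769.8 CPM in NFs (adjusted p = 0.00293, edgeR) and from 42.6 and 30.7 CPM to 139.7 and 103 CPM in tumor cells (adjusted p = 3.86e-05). Lcn2, a secreted iron-siderophore carrier, rose in NFs from 0.497 and 7.16 CPM to 21.2 and 16.5 CPM in CD26- and 173 and 139.9 CPM in CD26+ NFs (adjusted p = 7.9e-07). Lrg1, a secreted glycoprotein gene, fell from 1.06 and 7.93 CPM to at most 0.0642 CPM (adjusted p = 7.09e-05). Tumor cells had 436 to 661 CPM of Lcn2, and the level in co-cultured NFs was 3.21% to 3.77% of theirs in CD26- and 26.2% to 31.9% in CD26+ NFs, beside the epithelial share of 2.93% to 6.30%. Between subsets 3 of the 13 were higher in CD26+ NFs over 3 gels and 0 lower, where 3.93% of all genes were higher. The acute phase gene Saa3 had 44.4 against 407 CPM in CD26- and CD26+ NFs of gel 1, 30.7 against 530.4 CPM in gel 4 and 24.3 against 596 CPM in gel 5 (3.82 ± 0.24, adjusted p = 0.000101), the opposite direction to Il11 and Lif. Lcn2 (2.99 ± 0.18, adjusted p = 8.62e-05) and Bcl3 (0.58 ± 0.15, adjusted p = 0.0461) were the others.

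Of 13 further genes of the IL-1 axis, 11 were tested in NFs, where 2 rose and 7 fell with co-culture (all genes 25.9% and 22.9%). Il1rn, which encodes the secreted antagonist of Il1r1, fell from 175 CPM (CD26-) and 223 CPM (CD26+) to between 3.97 and 9.05 CPM (-5.02 ± 0.17, adjusted p = 8.69e-08, edgeR). The decoy receptor gene Il1r2 changed by -4.06 ± 0.35 (adjusted p = 1.67e-05). In tumor cells 0 of 9 tested rose and 4 fell, among them Il1rn, from 32.2 and 29.4 CPM to 3.85 and 6.10 CPM (-2.67 ± 0.22, adjusted p = 0.000159). Il1a, the gene of the ligand IL-1 alpha, went from 936 to 374 CPM in 13-MCB-17 and from 645 to 401 CPM in 10-SJK-221 (-1.03 ± 0.17, adjusted p = 0.00328). NFs of gel 1 held 0 counts of it, and those of gels 4 and 5 held 17.3 to 21.6 CPM, which is 5.79% (gel 4) and 4.32% (gel 5) of the tumor level in CD26- NFs, beside epithelial shares of 2.93% and 2.985%, and 5.26% and 4.94% in CD26+ NFs, beside shares of 4.30% and 6.30%. Il1b did not exceed 0.342 CPM. 

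For 4 members the genes with the most similar pattern were looked up by Pearson's r of log2(CPM + 1) over the 10 libraries among 13490 genes, as a description that the cell type and culture groups shape. They were A4galt, Sh2b2 and Smco4 for Il6 (r of 0.997, 0.996 and 0.996), Pvr, BC106175 and Bdkrb2 for Lif (0.982, 0.979 and 0.972), Ubash3b, Emilin3 and Ret for Il11 (0.984, 0.981 and 0.974), and Ahcy, Gm4737 and Pnpt1 for Socs3 (0.975, 0.971 and 0.970). Ret, which encodes a receptor tyrosine kinase, followed Il11 from 3.66 to 273 and 364 CPM in CD26- NFs, from 4.35 to 167 and 252 CPM in CD26+ NFs, and from 16.7 and 7.25 CPM to 80.9 and 39.4 CPM in the tumor lines.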

How the data were processed

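RNA was sequenced from 10 libraries of sorted NFs and tumor cells. The authors deposited raw read counts per gene as 1 table without normalization. HISAT2 2.2.1 and the GRCm38 build are named in the submitters' processing notes. How reads were counted, whether by strand, and on which annotation release was not given in the sources used here, so counts of genes with overlapping exons (Il6ra, Stat3) are uncertain. No per-sample column was left unused. Of 55486 gene IDs, 55226 (99.53%) matched GENCODE M21, which gave exon lengths and positions. Promoters came from RefSeq.

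Counts were fitted in R 4.3.3 with edgeR 4.0.16 (quasi-likelihood F test, TMM scaling, filterByExpr, Benjamini-Hochberg adjustment over all genes tested, threshold 0.05). Errors of log2 fold changes are standard errors (SE). The subset comparison over 3 gels and the co-culture comparison over both subsets were fitted to the 6 NF libraries with terms for subset and culture, and those within a culture or subset as 4 groups. The tumor model had terms for culture and line. NFs against tumor cells used all 10 libraries, in groups. DESeq2 1.42.0 was an alternative, as were RLE scaling, other filters, leaving out each gel and a gel block. Tests were also run on simulated counts drawn independently for each library, a setting that does not cover libraries that share a gel. CPM, and the ratios given per gel or tumor line, use library totals; other folds are from the fits. Libraries of 1 group differed beyond sampling noise. Nothing in the labels says that gels came from separate cultures of NFs, so p-values measure the spread between these libraries.

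Gel numbers pair NF and tumor libraries of gels 4 and 5 by label, since these shared a gel. Deviations from group means correlated with r = 0.1 between CD26- and CD26+ NFs, 0.103 between CD26- NFs and tumor cells and 0.0658 between CD26+ NFs and tumor cells over 17048 genes. Named genes were the 10 members, and of each other list at most the 3 genes per comparison with the largest change among those passing, with a mean of at least 1 CPM; Dpp4, Epcam and Col1a1 were checks of the labels. Osm, Il1b, Il31ra, Ptprc, Vim, Rgs5 and Cdh1 are given outside this rule, chosen after their values were seen. The members and lists were chosen with earlier results of these data known. A further floxed allele of the tumor line and some list genes are not reported here.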

Additional observations from a re-analysis of the deposited data

Results flagged for a closer look

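The response to co-culture differed between NFs and tumor cells for 8 members by a test of the difference itself, added after the values were seen, in all 10 libraries with edgeR. The log2 response of NFs minus that of tumor cells was 1.64 for Il6 (adjusted p = 0.0457), 4.18 for Lif (adjusted p = 3.3e-07) and 3.90 for Il11 (adjusted p = 4.73e-07). It was -2.43 for Il6st (adjusted p = 9.41e-06), -2.86 for Osmr (adjusted p = 1.47e-05), -1.24 for Stat3 (adjusted p = 0.000551), -1.45 for Socs3 (adjusted p = 0.000336) and -2.61 for Il1r1 (adjusted p = 4.09e-06). All 8 use the same single gel of NFs alone, so they are not independent of one another. The Il6 value rests on tumor libraries with 4 to 25 counts and was -0.16 without the tumor library of gel 2 or of gel 4 (adjusted p = 0.992).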

How the results depend on the processing

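Of 710 log2 fold changes of members recomputed under an alternative, 649 kept direction and side of the threshold, 46 lost and 5 gained the call, and 10 turned sign. With a replicate block for gel, the subset comparison in co-culture called 5 members in place of 2 and 2407 genes in place of 975. The block cannot be fitted beside culture for co-culture against alone, since each gel had 1 culture condition. It changed no other count of members by over 1.5 times.

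Members called between subsets over 3 gels ranged from 0 (without gel 5) to 4 when 1 gel was left out, with 2 without gel 1, and genes called fell from 1130 to 17 without gel 5. In co-culture the subsets differed in 1 member with no filter on low counts (603 genes called) and in 1 to 2 with a gel left out (317 genes without gel 5). In tumor cells, the fit of all 10 libraries called 4 members, as did the tumor libraries alone, and 1817 genes in place of 2942, and leaving out 1 library from that fit gave 2 members each time and 406 to 1014 genes. With no replicate block, that is without the line term, it gave 0 members and 0 genes. DESeq2 gave 1574 genes there. NFs against tumor cells in co-culture called fewer members and genes without gel 4 or gel 5. Each co-culture group is then 1 library, and the spread comes from the 2 tumor libraries grown alone. The interaction called 61 genes, and 18 with no filter, 38 with a filter of 1 CPM, 97 with DESeq2 and 395 with the block. The response difference called 5247 genes, and 2998 to 3439 without 1 tumor library.

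Signs turned for values that had not passed, and for Il6 in the response to co-culture. Over 3 gels, the subset value for Il6ra was -0.019 with no filter, and leaving out 1 gel moved it between -0.16 and 0.19 and that for Socs3 between -0.065 and 0.17. In co-culture, leaving out a gel gave subset values of -0.33 and 0.00051 for Il6ra, -0.28 and 0.053 for Lifr and -0.0019 and 0.32 for Socs3. The interaction for Osmr ranged from -0.018 to 0.20, and Il6st in NFs against tumor cells in co-culture from -0.23 to 0.011. The Il6 response difference ranged from -0.16 (without the tumor library of gel 2 or 4) to 2.62. The cause was not tested. Depth limits Il6 and Lifr in tumor cells, at 0 to 25 counts.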
